A study of Homo sapiens with 6 samples.

Results

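The genes that encode fatty acid synthesis, elongation and desaturation were examined in TE-1 cells with and without overexpression of FGL1. The set held 10 genes, ACLY, ACACA, FASN, ELOVL1, ELOVL5, ELOVL6, SCD, FADS1, FADS2 and ACSL3, out of 12180 protein-coding genes listed. All 10 were listed, and all 10 passed a filter that asked for 0.5 FPKM (fragments scaled by transcript length and by mapped fragments of the library) or more on average, as did 12017 genes in total. The genes were chosen by symbol after their values in these same libraries had been seen, so the difference between the groups took part in the choice. Their fold changes are therefore given as a description, without a test of the set.

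TE-1 is a cell line derived from an esophageal squamous cell carcinoma (ESCC), and RNA-seq was performed on 3 libraries of each of 2 groups. The FGL1-OE group carried a lentiviral vector for overexpression of FGL1, which encodes the secreted protein fibrinogen-like protein 1. The control group has the genotype WT in the sample labels, whereas the methods of the study give control cells a lentivirus with random nonsense sequences, and it is named NC here. The sample labels name no drug, dose or time point that separates the groups. The methods of the study establish its stable lentiviral lines by puromycin selection. The WT label does not say whether the control cells of these libraries went through it. Lentiviral integration gives a population whose integration sites differ from cell to cell, and only 1 cell line was sequenced. The sources do not say whether the 3 libraries of a group came from separate cultures, so p-values measure only the spread between these libraries.

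Cytosolic fatty acid synthesis starts from citrate. ATP-citrate lyase releases acetyl-CoA, acetyl-CoA carboxylase makes malonyl-CoA from it, and fatty acid synthase joins these units into palmitate. Palmitate is activated with CoA, lengthened by elongases of the endoplasmic reticulum and given double bonds by desaturases. In many tissues and tumors the genes of this route are transcribed under sterol regulatory element-binding proteins (SREBPs), which work together with the factors NF-Y and Sp1 at nearby promoter elements.

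Reference promoter sequence, a feature that took no part in the choice, was found in RefSeq on GRCh38.p14 for 9 of the 10 genes, in windows that ran from 250 bases before to 50 bases after each annotated start. FASN was not matched. The promoters of 3 genes are printed because SCD and ACLY were the genes whose FPKM did not overlap between NC and FGL1-OE and ELOVL6 had the lowest fold change. Without control library NC 2, the ELOVL6 log2 difference was 0.099 and FADS2 was lowest at -0.12. The choice used the same contrast as the fold changes, so no link between sequence and direction is read from these 3 promoters. Each is the 250 bases before the start, 5′ to 3′ on the strand of the gene, and capitals mark CCAAT, the core of the NF-Y site, or its reverse complement ATTGG. SCD is at chr10:100346983-100347232 on the plus strand, ACLY at chr17:41919023-41919272 on the minus strand, and ELOVL6 at chr4:110198616-110198865 on the minus strand.
SCD: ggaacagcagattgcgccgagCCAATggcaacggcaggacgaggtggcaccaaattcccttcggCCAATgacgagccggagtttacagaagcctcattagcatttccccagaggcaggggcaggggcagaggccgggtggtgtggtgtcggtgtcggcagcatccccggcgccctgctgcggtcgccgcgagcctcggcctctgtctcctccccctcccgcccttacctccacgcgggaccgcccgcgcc
ACLY: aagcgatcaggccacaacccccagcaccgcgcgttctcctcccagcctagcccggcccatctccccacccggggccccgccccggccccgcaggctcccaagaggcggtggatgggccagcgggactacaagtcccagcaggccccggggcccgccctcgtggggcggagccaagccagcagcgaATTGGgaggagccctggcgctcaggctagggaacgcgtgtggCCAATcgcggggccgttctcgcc
ELOVL6: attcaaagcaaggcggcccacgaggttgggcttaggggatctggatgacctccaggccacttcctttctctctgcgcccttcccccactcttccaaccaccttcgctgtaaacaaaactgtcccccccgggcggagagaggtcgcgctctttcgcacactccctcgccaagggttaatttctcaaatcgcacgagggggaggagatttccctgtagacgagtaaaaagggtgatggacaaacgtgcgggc

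The SCD promoter held CCAAT at 229 and 186 bases before the start. The ACLY promoter held ATTGG at 65 and CCAAT at 23 bases before the start, and the ELOVL6 stretch held neither. On either strand of the whole windows, CCAAT was found for 7 of the 9 genes, all but ELOVL6 and FADS1, against 39.7% of 27305 genes with a window. FADS1, without it, had a higher mean in FGL1-OE, while ELOVL1 and FADS2, with it, had lower means. The set of all genes with a window is wider than the genes tested here. In the 250 bases before the start alone, CCAAT was found for 6 of the 9, against 37% of genes. A gene with more than 1 annotated start, such as ACACA or ACLY, counted once if any of its windows held the letters. The Sp1 core GGGCGG was found for 8 of the 9, all but ELOVL5, against 48.3% of genes. The E-box CACGTG was found only for ELOVL5 among the 9, against 8.77% of genes. One form of the sterol regulatory element, TCACNCCAC, was found for none of the 9 and for 1.39% of genes. These are matches of letters only, and occurrences of different motifs may overlap.

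As a check of the labels, FGL1 was listed in the NC libraries at 0.0202, 0 and 0.106 FPKM and in the FGL1-OE libraries at 33.5, 39.3 and 39.9 FPKM. Values of single libraries are given in the order 1, 2 and 3 throughout. FPKM corrects for both the length of the transcript and the depth of the library. A trend with GC content remained in these libraries, so comparisons of levels between genes are approximate. On the log2(FPKM + 1) scale, where differences of low genes are understated, the FGL1 difference was 5.21 (SE 0.15, limma with Benjamini-Hochberg adjustment, adjusted p = 1.29e-05). The squamous marker KRT6A ranged from 108 to 197 FPKM and TP63 from 0.299 to 0.779 FPKM, while KRT14 and SOX2 of the 10 squamous markers were not listed. Of the 7 squamous markers tested, 6 had a higher mean in FGL1-OE, with a median log2 difference of 0.24, and KRT5 was lower (-0.064, SE 0.18). TP63, below the filter, had a mean of 0.519 FPKM in NC and 0.431 in FGL1-OE. Without NC 2, 5 were higher and 2 lower (KRT5 and SFN), with a median of 0.21. The groups were separate and higher for KRT6A (0.50, SE 0.18, and 0.35 without NC 2) and CDH1 (0.54, SE 0.20, and 0.35 without NC 2). This was so for 4.09% of all genes, and for 21.7% without NC 2. The part of these markers in the results was not tested. Of 11 markers of other cell types, 9 were not listed, leaving COL1A1 and CD68 at no more than 5.73 FPKM. The NC libraries stood further apart than the FGL1-OE libraries, with correlations of log2(FPKM + 1) over genes of 0.885 to 0.964 between NC libraries and at least 0.981 between FGL1-OE libraries. NC 2 stood apart from NC 1 and NC 3. Its difference from their mean had a Spearman rho of -0.79 with transcript GC content over 11775 genes, and mitochondrial genes took 20.1% of its summed FPKM against 4.76% and 8.51% in NC 1 and NC 3 and 11.9% to 12.8% in the FGL1-OE libraries. Fold changes of the 10 genes, and those of neighbouring genes that changed sign or moved by over 1.5 times without NC 2, are therefore given with and without it. The other libraries followed GC content as well. The deviation of a library from the gene mean had a rho with GC of 0.723, -0.774 and 0.46 in NC. In FGL1-OE it was 0.278, -0.548 and -0.352. Values without NC 2 set NC 1 and NC 3, both of positive rho, against FGL1-OE, so they are not free of this trend. In bulk RNA, fewer cells that express a gene and less RNA per cell cannot be told apart.

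Among the 10 genes, 7 had a higher mean in FGL1-OE and 3 a lower one, and the median difference was 0.29 on the log2 scale, beside 0.016 over all genes tested. Without NC 1 this median was 0.065. SCD had the highest difference and ACLY the next, and these were the 2 genes whose FGL1-OE libraries all lay above the NC libraries, where 4.09% of all genes did so and 3.06% lay below. Without NC 3, ACACA was separate and higher as well, where 8.20% of all genes were higher, and ELOVL1 and FADS2 were separate and lower, where 4.72% were. Without NC 1, FASN was separate and higher beside SCD and ACLY, where 6.71% of all genes were, and these 3 had an unadjusted p under 0.05 and a higher mean, as did 1.53%. With all libraries the same 2 had an unadjusted p from limma, a linear model that shares the estimate of spread across genes, under 0.05, beside 2.01% of all genes, made up of 1.21% higher and 0.807% lower. After Benjamini-Hochberg adjustment over all genes tested, limma called none of the 10 (adjusted p = 1 for each), and 0.00832% of genes, which is FGL1 alone, passed. The choice of the genes used this contrast, and nothing is read from these counts.

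**Figure D1:**
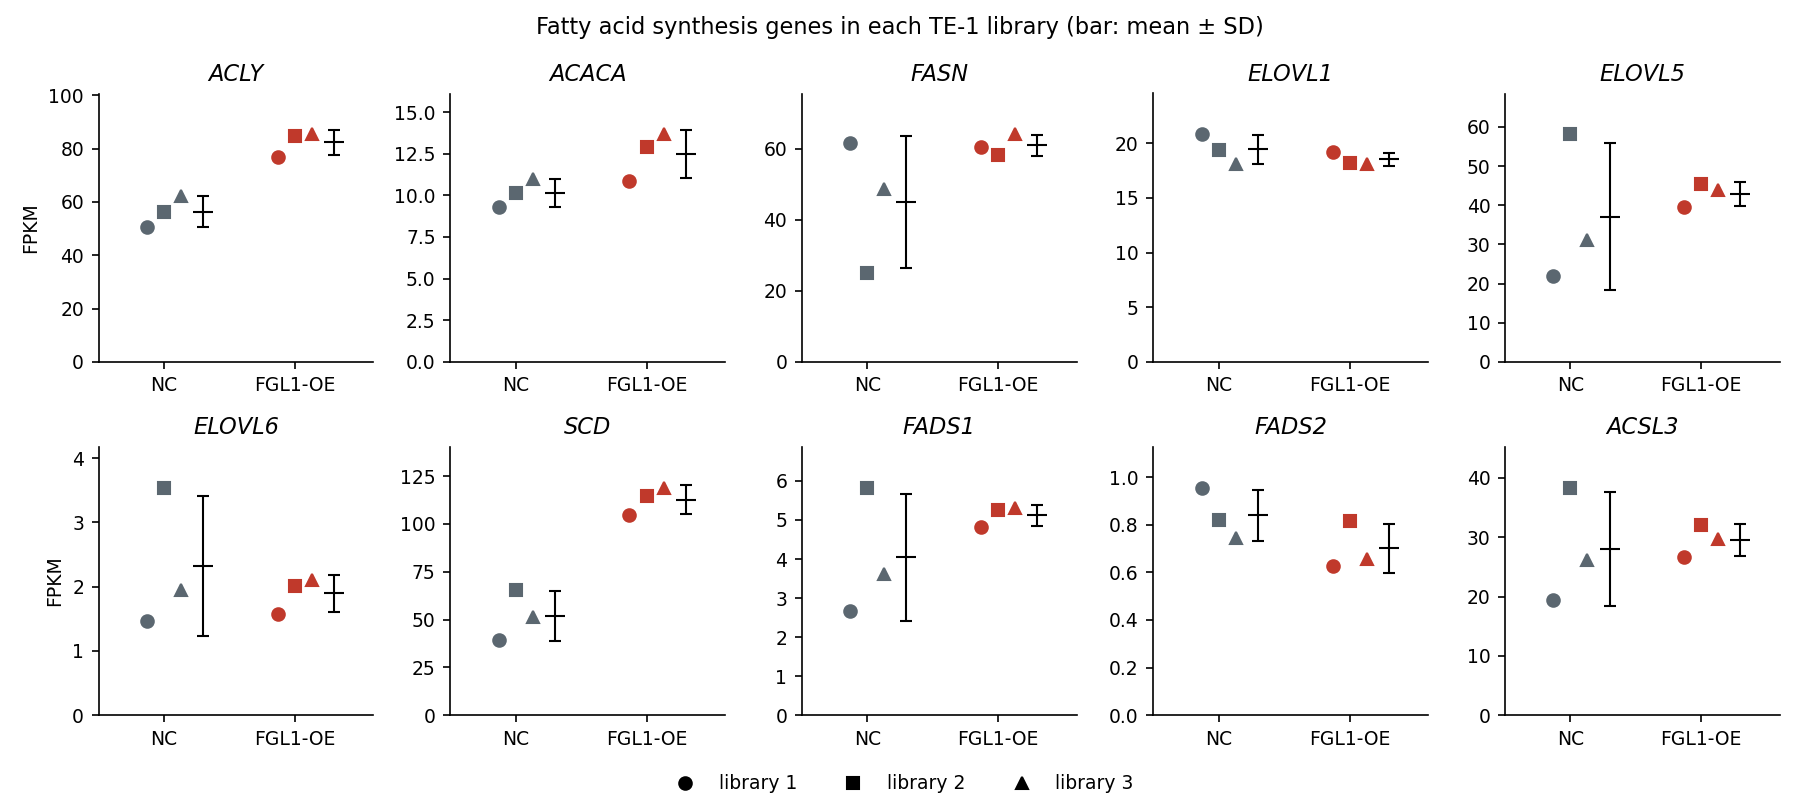
FPKM (vertical axis, from 0, its own scale for each gene) of the 10 genes in the 3 NC and 3 FGL1-OE libraries, with symbols for library numbers and bars for the mean ± SD (n = 3). The groups are separate for SCD and ACLY, and NC 2, the grey square, lies far from the other NC libraries for FASN and ELOVL5.

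ACLY (ENSG00000131473.16, chr17:40023161-40086795 on GRCh37) encodes ATP-citrate lyase, the source of cytosolic acetyl-CoA. It was at 50.5, 56.1 and 62.3 FPKM across the NC libraries and 77.0, 84.7 and 85.3 FPKM across the FGL1-OE libraries. Every FGL1-OE library was above every NC library. The means were 56.3 ± 5.90 and 82.3 ± 4.65 FPKM (SD, n = 3), with a log2 difference of 0.54 (SE 0.15). Without NC 2 the difference was again 0.54.

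ACACA (ENSG00000278540.4, chr17:35441923-35766909) encodes acetyl-CoA carboxylase alpha, which commits acetyl-CoA to synthesis by making malonyl-CoA. Its FPKM values were 9.32, 10.2 and 11.0 in NC and 10.9, 12.9 and 13.7 in FGL1-OE. The groups met, since FGL1-OE 1 was just below NC 3. The log2 difference was 0.27 (SE 0.15), and again 0.27 without NC 2.

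FASN (ENSG00000169710.8, chr17:80036209-80056208) encodes fatty acid synthase. Its FPKM values were 61.7, 25.0 and 48.6 in NC 1, 2 and 3 and 60.6, 58.3 and 64.1 in FGL1-OE 1, 2 and 3. NC 1 lay among the FGL1-OE libraries, while NC 2 was the lowest of the 6. The group means were 45.1 ± 18.6 and 61.0 ± 2.89 FPKM (SD, n = 3), a log2 difference of 0.52 (SE 0.31), and without NC 2 the difference was 0.15 (SE 0.15). Without NC 1 it was 0.79 (SE 0.26), and the groups were then separate.

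The 3 elongases lengthen chains in the endoplasmic reticulum by condensing a fatty acyl-CoA with malonyl-CoA. ELOVL1 (ENSG00000066322.14, chr1:43829068-43833745), which makes very long saturated and monounsaturated chains, was at 20.8, 19.4 and 18.1 FPKM across the NC libraries and 19.2, 18.2 and 18.1 FPKM across the FGL1-OE libraries. It differed little among the 6 libraries, with a log2 difference of -0.064 (SE 0.14), and -0.065 without NC 2. ELOVL5 (ENSG00000012660.13, chr6:53132196-53213977), which lengthens polyunsaturated chains, had 21.9, 58.1 and 31.2 FPKM in the NC libraries and 39.6, 45.4 and 43.8 FPKM in the FGL1-OE libraries. All FGL1-OE libraries lay between NC 3 and NC 2, the latter being the highest of the 6. Its log2 difference was 0.32 (SE 0.32) with all libraries and 0.69 (SE 0.18) without NC 2, when the groups no longer overlapped, but 0.0074 (SE 0.26) without NC 1. ELOVL6 (ENSG00000170522.9, chr4:110967002-111120355), which acts on palmitate, was at 1.46, 3.54 and 1.95 FPKM across the NC libraries and 1.57, 2.01 and 2.10 FPKM across the FGL1-OE libraries. NC 2 was again the highest, and the log2 difference changed sign, from -0.15 (SE 0.24) with it to 0.099 (SE 0.15) without it. Without NC 1 it was -0.34 (SE 0.21).

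SCD (ENSG00000099194.5, chr10:102106881-102124591) encodes stearoyl-CoA desaturase, which makes oleate and palmitoleate from saturated chains. It had 39.3, 65.2 and 51.4 FPKM in the NC libraries and 104, 115 and 119 FPKM in the FGL1-OE libraries. The groups were far from overlapping, with the lowest FGL1-OE library well above NC 2, the highest NC library. The means were 52.0 ± 13.0 and 112.7 ± 7.47 FPKM (SD, n = 3), and the log2 difference was 1.13 (SE 0.20), or 2.19-fold on that scale. Without NC 2 it was 1.31 (SE 0.16), and without NC 1 it was 0.95 (SE 0.16).

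FADS1 and FADS2 encode the delta-5 and delta-6 desaturases of polyunsaturated chains. FADS1 (ENSG00000149485.18, chr11:61567097-61596790) had 2.67, 5.83 and 3.62 FPKM in the NC libraries and 4.81, 5.25 and 5.30 FPKM in the FGL1-OE libraries. The FGL1-OE values all lay below NC 2 and above the other NC libraries. Its log2 difference was 0.33 (SE 0.23), and 0.57 (SE 0.15) without NC 2, but 0.12 (SE 0.19) without NC 1. FADS2 (ENSG00000134824.13, chr11:61560452-61634826) had the lowest level of the 10 genes, at 0.956, 0.818 and 0.746 FPKM across the NC libraries and 0.626, 0.818 and 0.658 FPKM across the FGL1-OE libraries. The groups overlapped, and the log2 difference was -0.11 (SE 0.14), and -0.12 without NC 2. The 2 loci overlap each other, and FADS2 also overlaps FEN1, so reads may have been divided between them, and the strand setting of the quantification is not given in the sources used here.

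ACSL3 (ENSG00000123983.13, chr2:223725652-223809357) encodes a long-chain acyl-CoA synthetase that activates fatty acids and is found on the endoplasmic reticulum and lipid droplets. It had 19.4, 38.3 and 26.1 FPKM in the NC libraries and 26.7, 32.1 and 29.6 FPKM in the FGL1-OE libraries. NC 2 was the highest of the 6, and the other NC libraries were the lowest. The log2 difference was 0.12 (SE 0.25) with NC 2 and 0.37 (SE 0.17) without it, and without NC 1 it was -0.10 (SE 0.20).

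Summed over the 10 genes, FPKM was 255 ± 27.3 in NC and 367 ± 19.2 in FGL1-OE (SD, n = 3), a sum to which SCD, ACLY and FASN contributed most. In NC the order of mean levels ran from ACLY through SCD, FASN, ELOVL5, ACSL3 and ELOVL1 to ACACA, FADS1, ELOVL6 and FADS2. The libraries of each of the first 5 genes overlapped those of the next gene in this order, as did those of FADS1 and ELOVL6. ACACA was separated from both ELOVL1 above it and FADS1 below it, and ELOVL6 was separated from FADS2. In FGL1-OE, SCD came first and ACLY next, with the other 8 in the same order as in NC, and every pair of neighbours was separated. Both orders hold for the gene FPKM alone, since sums of the transcript FPKM were 0.547 to 3.92 times the gene FPKM. The median SD of a gene within its group, on the log2 scale, was 0.405 in NC and 0.0909 in FGL1-OE for the 10 genes, beside 0.308 and 0.121 for all genes. It was larger in NC for 8 of the 10, all but ACACA and FADS2, and for 84.1% of all genes.

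The distance of NC 2 from the other NC libraries followed the base composition of the genes. FASN, whose most abundant listed transcript has 65.2% GC, was lower in NC 2 than the mean of NC 1 and NC 3 by a log2 difference of -1.10. ELOVL5, with 40.4% GC, was higher in NC 2 by 1.12, and ACSL3 and ELOVL6, with 42.2% and 42.9% GC, by 0.74 and 0.75. SCD was at 47.1% GC and 0.53, and FADS1 at 50.1% GC and 0.73. For ACACA, ACLY, ELOVL1 and FADS2, at 49.3% to 58.4% GC, this difference lay between -0.023 and 0.0066. FADS1 thus stood in NC 2 as far up as genes of much lower GC content. The part of base composition in the group differences was not tested.

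**Figure D2:**
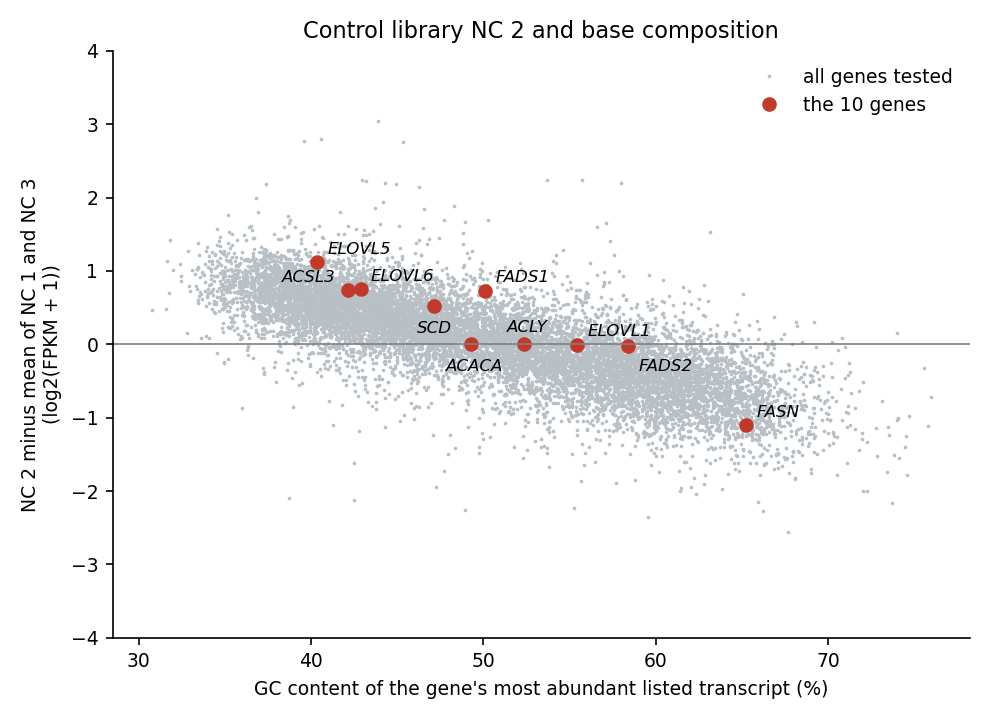
Difference in log2(FPKM + 1) between NC 2 and the mean of NC 1 and NC 3 (vertical axis) against the GC content in percent of the most abundant listed transcript (horizontal axis), with 1 grey point per gene tested and the 10 genes in red. The cloud falls from left to right (rho = -0.79), with ELOVL5 at 1.12 and FASN at -1.10.

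Without NC 2, 4 genes (ACLY, ELOVL5, FADS1 and SCD) had an unadjusted limma p under 0.05 and a higher mean in FGL1-OE, as did 11.1% of all genes. The groups of 5 of the 10, these 4 and ACSL3, were then separate and higher in FGL1-OE, beside 21.7% of all genes. Limma with Benjamini-Hochberg adjustment called 7 genes of 11980 without NC 2 and none of the 10, of which SCD had the smallest value (adjusted p = 0.0733). When the trend of each library with GC content and length was removed instead, a step chosen after seeing the data, ACACA, ACLY, FASN and SCD had an unadjusted p under 0.05 and a higher mean, as did 3.09% of all genes. These 4 were separate and higher in FGL1-OE, beside 7.41% of all genes, and ELOVL6 was separate and lower, beside 6.86%. The log2 difference of FASN was then 0.64 (SE 0.11), that of ELOVL5 0.24 (SE 0.16) and that of ELOVL6 -0.22 (SE 0.11). SCD at 1.09 (SE 0.12) and ACLY at 0.54 (SE 0.10) were little moved. Removing NC 2 thus lowered the FASN difference and raised that of ELOVL5, whereas removing the GC trend did the reverse.

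**Figure D3:**
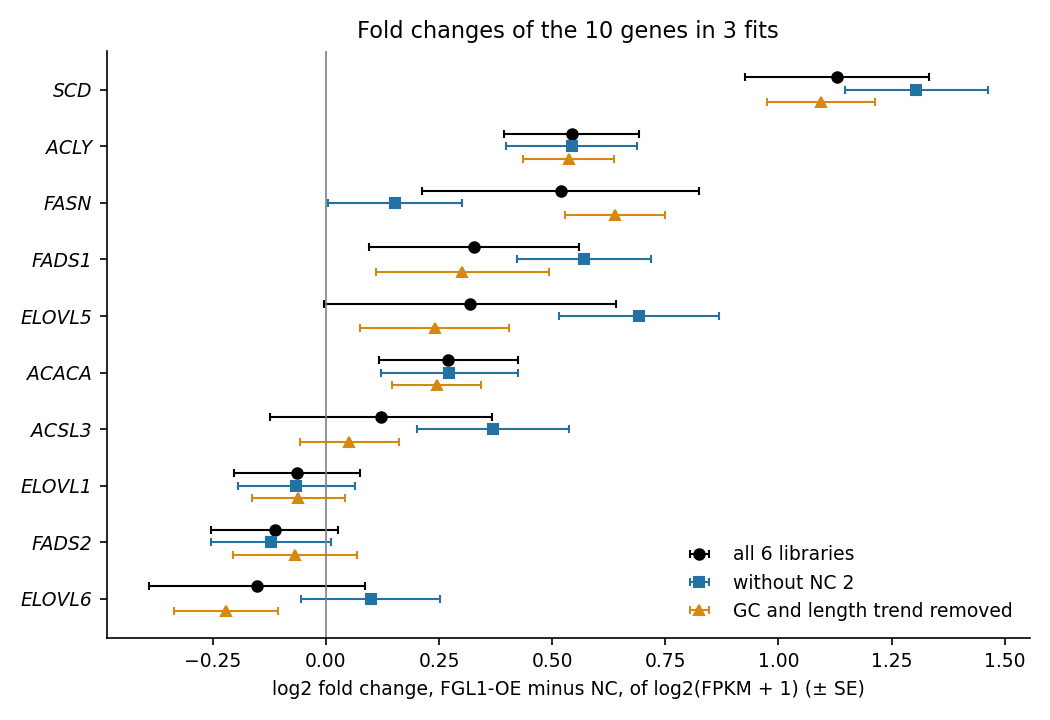
Log2 difference, FGL1-OE minus NC, of log2(FPKM + 1) (horizontal axis) for each of the 10 genes, with bars of ± SE, from all 6 libraries, without NC 2 and after removal of the GC and length trend. SCD stays between 1.09 and 1.31 and ACLY at 0.54, while FASN ranges from 0.15 to 0.64 and ELOVL5 from 0.24 to 0.69.

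The transcript table lists 30 transcripts of the 10 genes, and all 30 passed the filter. SCD and FADS1 have 1 listed transcript each. FPKM was separate and higher in FGL1-OE for 4 of the 30, SCD-201, ACLY-202, FASN-206 and FASN-207, beside 4.65% of all transcripts tested, and for none was it separate and lower, beside 3.57%. The first transcript of ACLY, ACLY-202 (ENST00000353196), was at 41.7, 48.7 and 50.5 FPKM across the NC libraries and 65.6, 65.1 and 61.4 FPKM across the FGL1-OE libraries. It took 67.0% ± 3.60 of the summed transcript FPKM of ACLY in NC and 63.5% ± 5.89 in FGL1-OE (SD, n = 3), so its share overlapped between groups. The next, ACLY-207, took 12.8% and 21.0%, and ACLY-203 took 11.2% and 6.55%.

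Among the 28 transcripts of the 8 genes with more than 1, 1 had a share whose groups did not overlap, beside 4.58% separate and higher and 4.27% separate and lower among 26421 such transcripts of all genes. This is near the background, and it is described only to account for the transcripts of FASN. FASN-207 (ENST00000635197, chr17:80051477-80056170 on GRCh37), a listed transcript of 627 bases in GENCODE v29 against 8407 bases for FASN-206, took 5.27%, 2.56% and 7.06% of the summed FASN transcript FPKM in NC and 11.6%, 16.4% and 10.8% in FGL1-OE. The difference in mean share was 7.94 percentage points, and leaving out 1 library at a time gave 6.22 to 9.01 points. In FPKM it was at 3.75, 0.721 and 4.01 in NC and 8.61, 12.2 and 8.38 in FGL1-OE. FASN-206 took 60.9% and 58.9% on average and FASN-201 took 34.1% and 28.2%, with overlapping libraries.

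For other genes, single libraries gave most of the sum to a different transcript. ELOVL1-216 took 70.4% to 83.9% of the ELOVL1 sum in 5 libraries but 5.37% in FGL1-OE 3, where ELOVL1-201 took 92.4%, and ELOVL1-202 took 6.05% in NC and 12.8% in FGL1-OE. ACACA-245 took 69.0% to 80.2% of the ACACA sum in 4 libraries, 35.2% in FGL1-OE 3 and 0% in NC 1. In NC 1, ACACA-237 took 91.2%, and in FGL1-OE 3 ACACA-226 took 47.1%. Libraries of 1 group thus differed more than the group means in these genes, and 7 of the 30 transcripts were listed at 0 in at least 1 library.

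The mean shares of the remaining genes moved with overlapping libraries. ELOVL5-201 took 68.4% in NC and 72.1% in FGL1-OE, ELOVL5-202 took 30.6% and 20.3%, and ELOVL6-201 took 65.6% and 74.8%, the rest being ELOVL6-202. ACSL3-202 took 54.3% and 63.9% and ACSL3-201 took 36.1% and 27.9%. FADS2-201 took 58.4% and 39.3%, FADS2-202 took 11.0% and 30.8% and FADS2-210 took 30.7% and 29.9%, and FADS2-202 was listed at 0 in NC 1 and NC 2. The sum of the transcript FPKM was between 0.547 and 3.92 times the gene FPKM over the 10 genes and 6 libraries, the lowest ratio in ELOVL1 and the highest in FADS2, so the tables cannot be read on 1 scale.

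**Figure D4:**
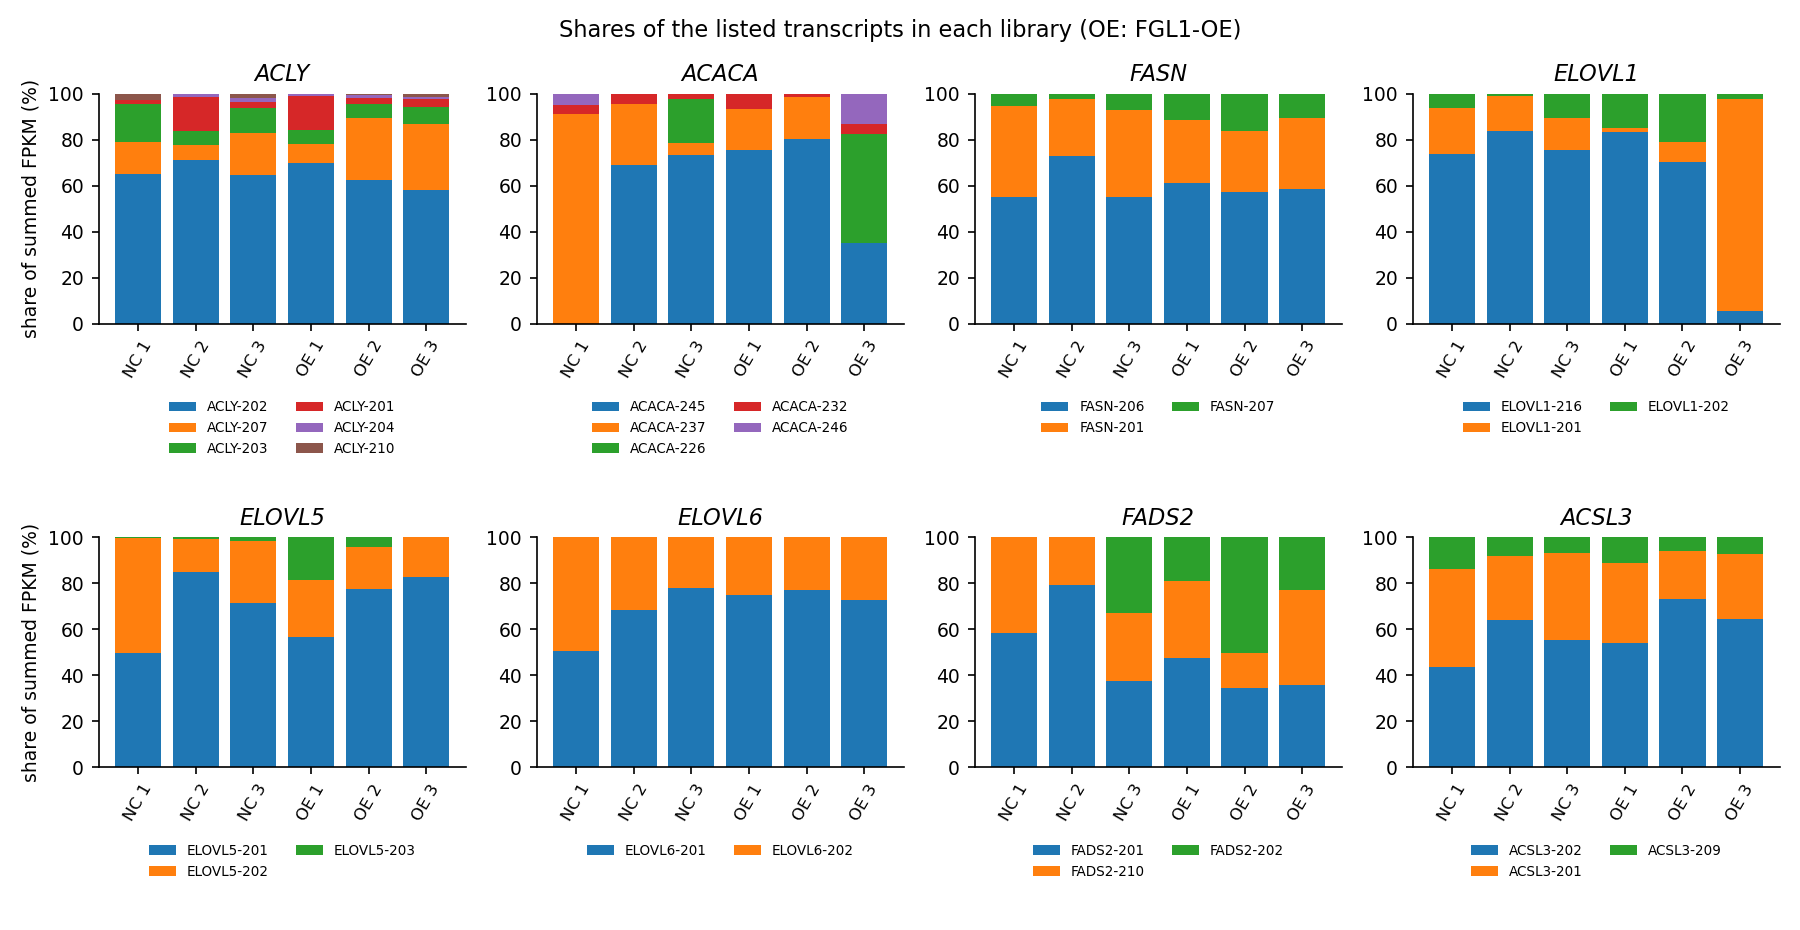
Share in percent (vertical axis) of the summed FPKM of the listed transcripts for the 8 genes with more than 1, with 1 bar for each of the 3 NC and 3 FGL1-OE (OE) libraries. FASN-207, in green, is larger in all FGL1-OE libraries, and ELOVL1 in OE 3 and ACACA in NC 1 differ from the other libraries of their groups.

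The neighbouring genes of the pathway were taken from 8 lists, chosen with earlier results of these data known. They hold 95 symbols, of which 87 were tested. Of these, 46 had a higher and 41 a lower mean in FGL1-OE, and their median log2 difference was 0.017. Limma gave an unadjusted p under 0.05 to 5 of them in the higher direction, beside 1.21% of all genes. In the lower direction it was 1, beside 0.807%. None of the 87 passed after Benjamini-Hochberg adjustment (adjusted p = 1 for all). The groups were separate and higher for 10 of the 87 and separate and lower for 2, beside 4.09% and 3.06% of all genes. Without NC 2, 12 of the 87 had an unadjusted p under 0.05 in the higher and 11 in the lower direction, beside 11.1% and 10.6% of all genes, again none after adjustment. The groups of 24 were then separate and higher and those of 18 separate and lower, beside 21.7% and 21.3% of all genes.

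In the supply of acetyl-CoA and NADPH all 6 genes tested had a higher mean, with a median of 0.31. ACSS2, which makes acetyl-CoA from acetate, had 5.98, 6.73 and 7.66 FPKM in the NC libraries and 10.3, 9.85 and 9.98 FPKM in the FGL1-OE libraries. Its groups were separate, with a log2 difference of 0.51 (SE 0.15, limma unadjusted p = 0.00937).

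In the elongation cycle, 5 of 8 genes were higher and 3 lower, with a median of 0.072, against 7 higher, 1 lower and a median of 0.29 without NC 2. HSD17B12, the 3-ketoacyl-CoA reductase that acts after the elongases, was at 3.89, 5.66 and 3.87 FPKM across the NC libraries and 8.32, 7.58 and 7.37 FPKM across the FGL1-OE libraries. Its log2 difference was 0.69 (SE 0.17, limma unadjusted p = 0.00455). ELOVL3, an elongase of saturated and monounsaturated chains, stood on the other side, with 7.79, 7.58 and 8.02 FPKM in the NC libraries and 5.57, 5.28 and 5.53 FPKM in the FGL1-OE libraries. Its log2 difference was -0.45 (SE 0.13, limma unadjusted p = 0.0111). Both genes had separate groups, in opposite directions.

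Among the other desaturation genes, which include the cytochrome b5 system that passes electrons to SCD and the FADS enzymes, 1 of 6 was higher and 5 were lower, with a median of -0.11. The range ran from FADS3 at -0.21 (SE 0.28) to CYB5R3 at 0.039 (SE 0.18), and none had an unadjusted p under 0.05. Without NC 2, FADS3 was at -0.55 (SE 0.12, limma unadjusted p = 0.00267) with separate groups, CYB5R3 at -0.11, and the highest was DEGS1 at 0.48 (SE 0.53), which was at -0.039 with NC 2. The median was then -0.19. By unadjusted p 1 gene was lower, beside 10.6% of all genes, and the groups of 2 were separate and lower, beside 21.3%. Malonyl-CoA metabolism and mitochondrial fatty acid synthesis had 5 of 9 genes higher, with a median of 0.0069, from HSD17B8 at -0.26 (SE 0.22) to the acyl carrier protein NDUFAB1 at 0.33 (SE 0.18), and again none had an unadjusted p under 0.05. Without NC 2, 3 of these 9 were higher, the median was -0.076, and HSD17B8 was at -0.45 (SE 0.17, limma unadjusted p = 0.0335).

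For activation, uptake and binding, 5 of 9 genes were higher, with a median of 0.11. FABP5, a fatty acid-binding protein of epithelia, was at 4.56, 5.68 and 7.29 FPKM across the NC libraries and 9.58, 10.3 and 8.37 FPKM across the FGL1-OE libraries, with separate groups. Its log2 difference was 0.62 (SE 0.19, limma unadjusted p = 0.0116), and SLC27A2, a fatty acid transport protein, had the lowest, -0.17 (SE 0.23). With NC 2 left out the median was 0.0048, SLC27A2 was at 0.0048 (SE 0.20), and the lowest was SLC27A4, of the same family, at -0.44 (SE 0.13, limma unadjusted p = 0.0131), which was at -0.15 with NC 2. The highest was then ACSL4 at 0.625 (SE 0.16, limma unadjusted p = 0.00628), which was at 0.33 with NC 2. By unadjusted p 3 genes were higher and 1 lower, beside 11.1% and 10.6% of all genes. The groups of 3 were separate and higher and those of 2 separate and lower, beside 21.7% and 21.3%.

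Of 22 lipogenic regulators 11 were higher and 11 lower, with a median of 0.0061. INSIG1, which retains the SREBP escort protein in the endoplasmic reticulum and is itself an SREBP target, had 7.28, 12.6 and 5.52 FPKM in the NC libraries and 15.2, 14.5 and 25.2 FPKM in the FGL1-OE libraries. Its groups were separate, with a log2 difference of 1.05 (SE 0.32, limma unadjusted p = 0.0111). SREBF1, which encodes the SREBP most tied to fatty acid synthesis, differed by 0.21 (SE 0.27, limma unadjusted p = 0.452). Its difference was -0.078 (SE 0.17, limma unadjusted p = 0.651) without NC 2 and 0.33 (SE 0.099, limma unadjusted p = 0.0133) with the GC trend removed. RXRA, a nuclear receptor partner, had the lowest difference of the list at -0.42 (SE 0.22), and -0.65 (SE 0.15, limma unadjusted p = 0.00279) without NC 2. The median of the list was then 0.053, with 12 higher and 10 lower.

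In glycerolipid synthesis 4 of 11 genes were higher, with a median of -0.10. LPIN1, a phosphatidate phosphatase, was at 3.90, 6.33 and 5.44 FPKM across the NC libraries and 7.17, 9.04 and 9.02 FPKM across the FGL1-OE libraries, separate between groups with a log2 difference of 0.61 (SE 0.20, limma unadjusted p = 0.0151). AGPAT1, an acyltransferase, was lowest at -0.22 (SE 0.16). With NC 2 left out 6 of the 11 were higher, with a median of 0.00017. In fatty acid oxidation 9 of 16 genes were higher, with a median of 0.018 and none with an unadjusted p under 0.05, from ECI1 at -0.43 (SE 0.27) to HADH at 0.16 (SE 0.14). Without NC 2 the oxidation list had 7 higher and 9 lower genes and a median of -0.034. An unadjusted p under 0.05 then went to 1 higher and 5 lower genes, beside 11.1% and 10.6% of all genes. The groups of 3 were separate and higher and those of 6 separate and lower, beside 21.7% and 21.3%. ECI1 was then at -0.68 (SE 0.21).

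The genes of sterol synthesis and uptake share SREBP control with the fatty acid genes. This list had been added after values of these libraries were seen, and it is no independent evidence of a direction. Of its 19 genes 18 had a higher mean, with a median of 0.48. An unadjusted limma p under 0.05 went to 10, all higher, beside 1.21% of all genes, and none passed after adjustment. The groups of 10 were separate and higher, beside 4.09%. The log2 differences ranged from PMVK at -0.23 (SE 0.38) to MSMO1 at 0.87 (SE 0.29). NSDHL, HMGCS1, FDFT1, DHCR7, CYP51A1, IDI1 and SQLE were among the others with an unadjusted p under 0.05. With NC 2 left out, PMVK was at -0.68 (SE 0.20), separate and lower, and MSMO1 at 1.20 (SE 0.16). Then 17 of the 19 were higher. An unadjusted p under 0.05 went to 11 higher and 1 lower gene, beside 11.1% and 10.6% of all genes.

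**Figure D5:**
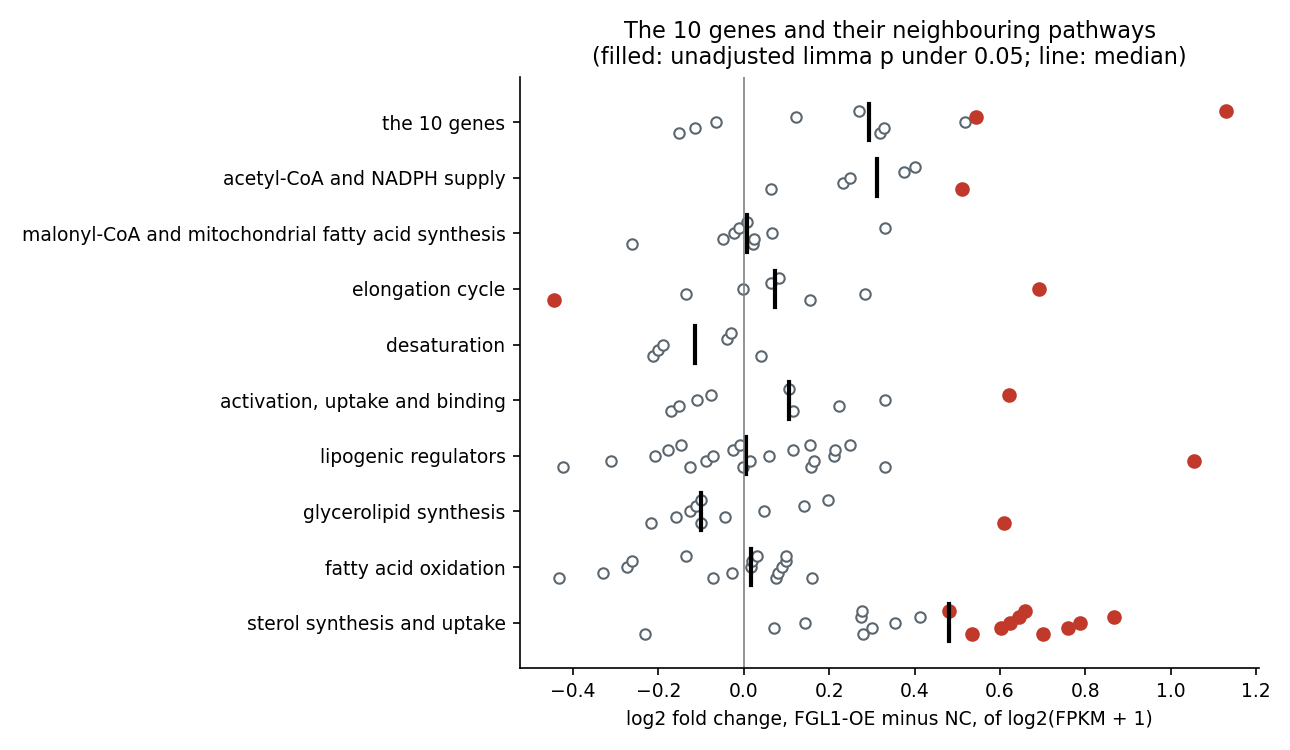
Log2 difference, FGL1-OE minus NC, of log2(FPKM + 1) (horizontal axis) for the 10 genes and 9 lists of neighbouring genes, with filled points for an unadjusted limma p under 0.05 and a vertical line for each median. The medians lie between -0.11 and 0.11 except for the 10 genes at 0.29, acetyl-CoA and NADPH supply at 0.31 and sterol genes at 0.48. The 10 genes and all the lists were chosen with earlier results of these data known.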

How the data were processed

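RNA of 3 NC and 3 FGL1-OE libraries of TE-1 cells was enriched for mRNA and sequenced by the authors from a stranded kit. The authors deposited FPKM values per gene and per transcript, not scaled further between libraries. Per the labels, the processing notes name StringTie and GRCh37. The version, aligner and annotation release are not given in the sources used here. The log2 fold changes, fold ratios, p-values and q-values that the authors deposited describe their own comparison and were not used. No period of whole reads was found in the low FPKM values (strength of the best period 0.0832 to 0.115, where 1 is whole reads), so depth is unknown and no counting interval is given. A value of 0 may be a failed estimate.

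The genotype label of each sample gave its group. Limma 3.58.1 (R 4.3.3) was run on log2(FPKM + 1) of the genes that averaged 0.5 FPKM or more, with no covariate, and the Benjamini-Hochberg adjustment covered all 12017 genes. An exact permutation test of 3 against 3 cannot go below p = 0.1 and was not used. The code was tested on simulated data. The 10 genes, the lists of neighbouring genes and the tests were chosen with earlier results of these data known. Named genes are the 10, FGL1, and from each list those with an unadjusted p under 0.05 and the highest and lowest fold change. Some genes that this rule picks are not reported here. SREBF1, DEGS1, SLC27A4, ACSL4, the markers and the other transcripts with a count of their own were named after their values were seen. Named transcripts took at least 10% of the sum in either group. GC content came from GENCODE v29 transcripts matched by identifier (98.0% of genes tested), and its trend was removed with a loess of span 0.3. The alternatives were a pseudocount of 0.1, testing every listed gene, a stricter minimum of 1 FPKM, scaling each library to the same sum, quantile normalization, an ordinary linear model, sums of the transcript table, a replicate block and leaving out each library.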

Additional observations from a re-analysis of the deposited data

How the results depend on the processing

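SCD and ACLY kept separate groups and an unadjusted limma p under 0.05 in all 15 alternatives, and none of the 10 genes had an adjusted p under 0.05 in any. Of 149 values of single genes under these alternatives, 3 changed sign. ELOVL6 ranged from -0.34 to 0.099 when 1 library was left out, positive without NC 2. ACSL3 ranged from -0.10 to 0.37, negative without NC 1. FADS2 was at 0.15 in sums of the transcript table. The cause was not tested.

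The median log2 difference of the 10 genes ranged from 0.065 without NC 1 to 0.36 without FGL1-OE 1. The number with an unadjusted p under 0.05 was 2 to 4 with 1 library left out. It was 4 without NC 2, beside 2610 of 11980 genes tested. After removal of the GC and length trend it was 4, beside 753 of 11775. The number with separate groups was 2 to 5. It was 5 without NC 2, all higher, beside 21.7% of all genes. It was 5 without NC 3, 3 higher beside 8.20% and 2 lower beside 4.72%, and 5 with the trend removed, 4 higher beside 7.41% and 1 lower beside 6.86%. Without NC 1, FASN was at 0.79, ELOVL5 at 0.0074 and FADS1 at 0.12. Among the 87 neighbouring genes, 4 to 23 had an unadjusted p under 0.05 with 1 library left out. The 4 were without FGL1-OE 2, beside 138 of 12020 genes tested, and the 23 without NC 2, beside 2610 of 11980. With the trend removed the number was 13, beside 753 of 11775.

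Same-numbered NC and FGL1-OE libraries had correlations of their deviations of 0.345, 0.282 and -0.061, and NC 3 correlated best with FGL1-OE 1 (0.111), so the numbers were not taken as pairs. With a replicate block, 2 of the 10 genes had an unadjusted p under 0.05, and 298 of all genes against 242 without it. Unknown depth and 3 libraries a group limit the precision.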

Other observations

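Among 6544 other genes with a mean of at least 5 FPKM, the 10 whose log2(FPKM + 1) over the 6 libraries was most like the mean standardized profile of the 10 fatty acid genes were FSTL1, IGF2BP3, IFIT2, RAB5A, CRCP, TBC1D22B, CCT6A, SPART, HMGCS1 and RPL26L1. Their Pearson r ran from 0.976 for RPL26L1 to 0.996 for FSTL1. HMGCS1, which makes HMG-CoA for sterol synthesis, was at 7.29, 14.2 and 9.37 FPKM across the NC libraries and 14.0, 17.2 and 15.7 FPKM across the FGL1-OE libraries, so NC 2 stood above the other NC libraries in it as well. FSTL1, which encodes a secreted glycoprotein, had 5.41, 8.11 and 6.11 FPKM in the NC libraries and 7.23, 9.24 and 8.48 FPKM in the FGL1-OE libraries. These points share their libraries and the GC trend, and no p is given.

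The 10 genes did not share 1 profile. Over the 6 libraries, the r of a gene with the mean of the other 9 was 0.89 for FADS1, 0.82 for ELOVL5, 0.79 for SCD and 0.73 for ACSL3. It was -0.36 for FASN, -0.57 for FADS2 and -0.69 for ELOVL1. FASN was lowest and ELOVL5, ELOVL6, FADS1 and ACSL3 were highest in NC 2.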
